A study of Mus musculus with 12 samples.

Results

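The genes described here encode subunits of the receptors for glutamate, GABA and glycine, the fast transmitters of the cerebellum. The list was set by name and held 34 genes: AMPA, kainate, NMDA, delta and metabotropic glutamate receptors, GABA-A and GABA-B receptors, and glycine receptors. For each gene the brightest row of the array table that carries its symbol alone was used, which gave 33 of the 22180 genes measured. Grin1, the NMDA receptor subunit that every such receptor needs, had no row with its symbol alone and was not analysed here.

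RNA came from the cerebellum of 12 mice, with 1 array per mouse. The 4 groups were wild-type males, wild-type females, Ciz1-/- males and Ciz1-/- females, with 3 mice each, called WT and KO below. Ciz1 encodes a nuclear protein with roles in DNA replication and in holding Xist RNA on the inactive X chromosome. The labels give an age of 10 months in the extraction protocol and a range from 6 months in the series design. They call the controls wild type in the source name and Ciz1+/+ in the protocol but Ciz1+/- in the genotype field, and they do not describe the strain or how the Ciz1 allele was made. Ciz1 itself stood at 8.70 to 8.90 on the log2 scale in the WT arrays and at 6.82 to 7.32 in the KO arrays.

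Glutamate opens AMPA, kainate and NMDA receptors, which are cation channels built from several subunits, and it acts on metabotropic receptors through G proteins. GABA and glycine open chloride channels that inhibit the cell, and GABA also acts on the G protein-coupled GABA-B receptor. In the cerebellum, granule cells excite Purkinje cells through AMPA receptors, at synapses that a delta receptor helps to hold together, interneurons inhibit both through GABA-A receptors, and Bergmann glia carry AMPA and GABA-A receptors of their own. The choice of subunits sets where a receptor sits and how it responds.

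The tissue label was checked against marker genes. All 9 granule cell markers and all 8 measured Purkinje cell markers lay above a background reference of 6.47 on the log2 scale, the 95th percentile of 1394 olfactory and vomeronasal receptor genes. Of the 13 measured markers of brainstem and deep nuclei 10 lay below this reference. The others, Slc17a6, Nefh and Slc6a5, lay above it, so an absence of cells of the deep nuclei is not read from this list. Of 3 measured forebrain markers 2 lay below the reference. Among the receptor genes Glra1, Glra2 and Glra3 lay below it, so a signal of their own was not shown. Brightness depends on the probes, so levels of different genes were not compared. In whole tissue, fewer cells of a type and less RNA per cell cannot be told apart.

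None of the 33 receptor genes passed the test for genotype over both sexes after adjustment over all genes (limma, Benjamini-Hochberg adjusted p from 0.154 to 0.985), where 0.0225% of all genes did. At an unadjusted limma p under 0.05, 6 receptor genes were lower in the knockout and 0 higher. Over all genes 4.87% were lower and 4.38% higher by that rule. The 6 were the GABA-A subunits Gabra5, Gabrg1 and Gabrb1, the NMDA subunit Grin3a, the metabotropic receptor Grm5 and the glycine receptor subunit Glra1. The count fell to 2 without WT_male replicate 3, to 3 without WT_female replicate 1 and to 3 without KO_male replicate 3. Of the 33 genes 20 had a lower mean in the knockout (60.6%, against 50.4% of all genes), and their median difference was -0.05 on the log2 scale, against -0.0007 over all genes. In no receptor gene were the 6 KO arrays wholly apart from the 6 WT arrays, a separation found in 0.55% of all genes.

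**Figure D1:**
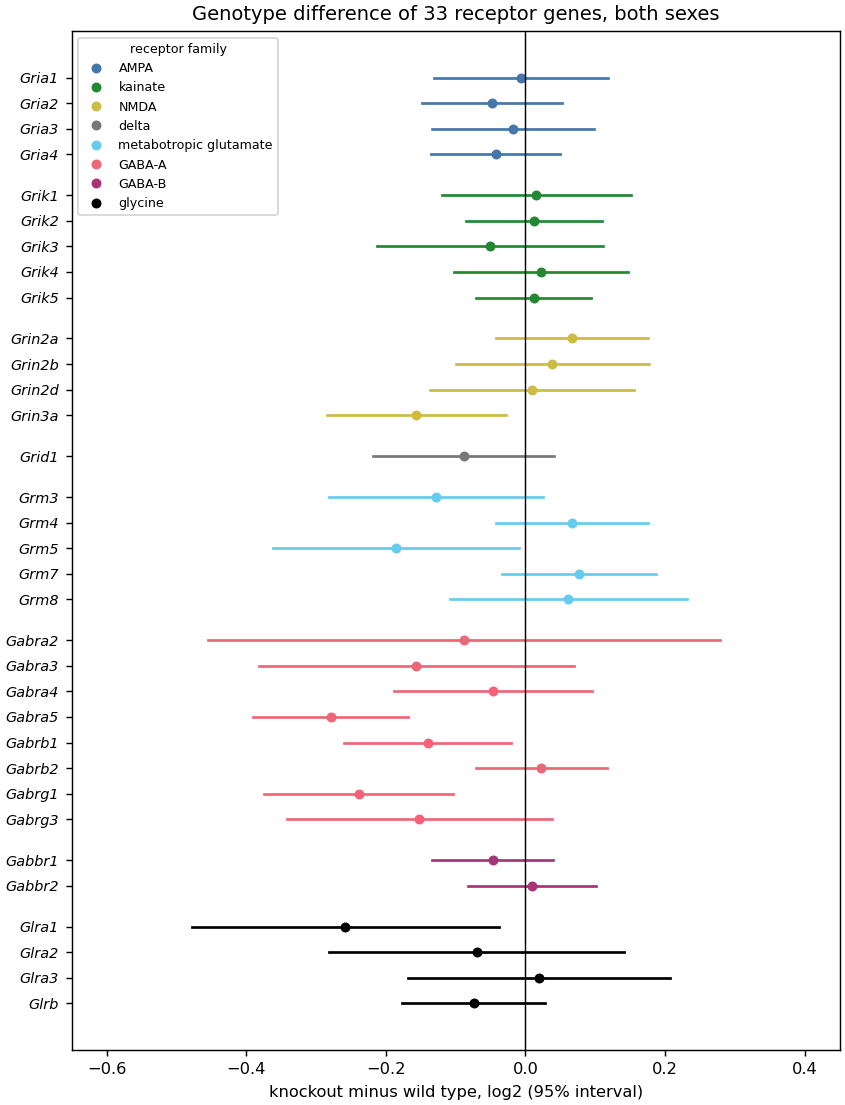
Difference in log2 intensity, knockout minus wild type over both sexes (x axis), for the 33 receptor genes (y axis, coloured by family), with points for the estimate and lines for its 95% interval from limma. The intervals of Gabra5, Gabrg1, Gabrb1, Grin3a, Grm5 and Glra1 lie below 0, and the widest is that of Gabra2.

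The promoter sequences of Gabra5 and Gabrg1 are shown because these receptor genes had the smallest p for genotype. Each runs from 250 bases before to 50 bases after the start in RefSeq (build GRCm38.p6), in the direction of the gene. Gabra5 lies on the minus strand at chr7:57510010-57510309 and Gabrg1 on the minus strand at chr5:70842568-70842867. Capitals mark the CCAAT box, read on either strand (CCAAT, or ATTGG where it lies on the other strand).
Gabra5: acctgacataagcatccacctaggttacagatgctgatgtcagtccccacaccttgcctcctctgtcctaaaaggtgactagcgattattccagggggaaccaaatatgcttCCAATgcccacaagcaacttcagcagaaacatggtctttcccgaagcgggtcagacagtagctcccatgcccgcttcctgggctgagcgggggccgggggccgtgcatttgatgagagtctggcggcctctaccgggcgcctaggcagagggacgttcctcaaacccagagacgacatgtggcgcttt
Gabrg1: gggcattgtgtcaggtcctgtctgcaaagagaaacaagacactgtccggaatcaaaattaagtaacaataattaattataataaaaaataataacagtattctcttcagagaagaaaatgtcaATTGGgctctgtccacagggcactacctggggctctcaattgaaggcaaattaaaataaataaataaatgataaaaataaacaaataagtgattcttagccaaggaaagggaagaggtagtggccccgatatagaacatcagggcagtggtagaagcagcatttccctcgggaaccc
The CCAAT box began 138 bases before the start in Gabra5 and, on the other strand, 127 bases before it in Gabrg1. It is a common element, present in 37.4% of the 32851 promoters of the same length and in 9 of the 23 receptor genes with a promoter in that table. A receptor gene was counted if any of its listed starts held the box, so the shares were not counted alike. Neither window held the TATA box TATAAA (13.6% of all promoters), the GC box GGGCGG (35.7%), the cyclic AMP element core TGACG (20.8%) or the Nr4a element AAAGGTCA (1.5%), each searched on both strands. The windows differed in base composition, with 56.7% G and C in Gabra5 and 38.3% in Gabrg1, against a median of 52.7% over all promoters. These matches describe the letters of the windows and no binding was measured.

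GABA-A receptors combine alpha, beta and gamma or other subunits around a chloride pore, and 8 of their genes belonged to this list. Of these 7 had a lower mean in the knockout, against 50.4% of all genes. Over the 8 the median log2 difference was -0.15 among males and -0.16 among females. Further GABA-A genes were read from another list, described below. Of those Gabra6 and Gabrd differed by 0.01 (SE 0.07) and 0.07 (SE 0.05). Gabre, Gabrp and Gabrq, below the background reference, had lower means. Gabra5 encodes an alpha subunit of receptors that lie largely outside synapses and give a steady inhibitory current. It stood at 6.94, 6.78 and 6.84 in WT_male and at 6.59, 6.64 and 6.75 in WT_female. It stood at 6.48, 6.65 and 6.45 in KO_male and at 6.45, 6.42 and 6.40 in KO_female. The genotypes overlapped by the single KO_male array at 6.65, which lay above 2 of the WT_female arrays. Within each sex every KO array lay below every WT array. The difference was -0.28 (SE 0.05; 95% interval -0.39 to -0.17 on the log2 scale; limma adjusted p = 0.154). Its mean of 6.62 was close to the background reference of 6.47, and 4 of the 6 KO arrays and 0 WT arrays lay below that reference, so the size of the difference in RNA is not read from it.

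Gabrg1 encodes a gamma subunit with a narrow distribution that includes glia. Its values were 8.43, 8.78 and 8.75 in WT_male, 8.54, 8.64 and 8.47 in WT_female, 8.47, 8.49 and 8.38 in KO_male and 8.28, 8.25 and 8.31 in KO_female. The KO_female arrays were the lowest of all and did not overlap any other group, while KO_male overlapped both WT groups. The difference was -0.24 (SE 0.06; limma adjusted p = 0.316), with -0.21 in males and -0.27 in females.

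Gabrb1 encodes a beta subunit. It was measured at 9.67, 9.76 and 9.87 in WT_male, 9.76, 9.72 and 9.70 in WT_female, 9.79, 9.72 and 9.53 in KO_male, and 9.52, 9.49 and 9.59 in KO_female. The KO_female arrays lay below every WT array, and of the KO_male arrays 2 lay within the WT range and 1 at the KO_female level. The difference was -0.14 (SE 0.05; limma adjusted p = 0.495).

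Marker genes of glia were read beside the GABA-A genes, and their part in those results was not tested beyond the fits given here. Of 12 Bergmann glia and astrocyte markers 9 had a lower and 3 a higher mean in the knockout (median -0.09), 3 of them lower at an unadjusted limma p under 0.05 and 0 after adjustment. Their summed intensity was 22431 to 22929 in WT_male and 20383 to 21694 in WT_female. It was 20850 to 21793 in KO_male and 20496 to 20944 in KO_female, so that the females overlapped. Aldoc, with a mean of 13.02 on the log2 scale, was the brightest of these markers and weighs most in the sum. It differed by -0.01 (SE 0.04), so the sum says little about the dimmer markers. All 9 measured oligodendrocyte markers were lower at an unadjusted p under 0.05 (median -0.28) and 1, Opalin, passed after adjustment, with sums of 6018 to 6892 in WT_male, 6491 to 7049 in WT_female, 5187 to 6589 in KO_male and 4992 to 5380 in KO_female. No marker of these lists lay below the background reference. The mean log2 level of the astrocyte markers, not their sum, was entered in the fit as a covariate, a choice made with the data in view. In that fit Gabrb1 differed by -0.01 (SE 0.09), Gabrg1 by -0.13 (SE 0.11) and Gabra5 by -0.26 (SE 0.09). With the oligodendrocyte level as a covariate Gabrb1 differed by -0.06 (SE 0.10), Gabrg1 by -0.15 (SE 0.11) and Gabra5 by -0.45 (SE 0.07). The estimate for Gabra5 was thus about as large or larger with these covariates, and those for Gabrg1 and Gabrb1 were smaller. For Gabra5 the limma adjusted p was 0.622 with the astrocyte and 0.356 with the oligodendrocyte level, against 0.154 without a covariate. Most of these markers were themselves lower in the knockout, so the fits cannot tell genotype and glial marker level apart.

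The other GABA-A genes of this list had intervals that included 0. Gabrg3, a gamma subunit, differed by -0.15 (SE 0.09), with -0.01 in males and -0.29 in females. Its mean of 6.57 was close to the background reference, with 3 KO arrays and 1 WT array below it. Gabra3, an X-linked alpha subunit, differed by -0.16 (SE 0.10), Gabra4 by -0.05 (SE 0.06) and Gabrb2, a beta subunit, by 0.02 (SE 0.04). In the RefSeq order of protein-coding genes Gabrg1, Gabra2, Cox7b2, Gabra4 and Gabrb1 follow each other on chromosome 5, and Gabrg3 and Gabra5 lie side by side on chromosome 7. The receptor genes of this list in both clusters had lower means in the knockout. On chromosome 5 the differences were -0.24 for Gabrg1, -0.09 for Gabra2, -0.05 for Gabra4 and -0.14 for Gabrb1. On chromosome 7 they were -0.15 for Gabrg3 and -0.28 for Gabra5. The interval of Gabra2, -0.45 to 0.28, held the estimate of Gabrg1. Whether genes of a cluster differ from each other was not tested.

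**Figure D2:**
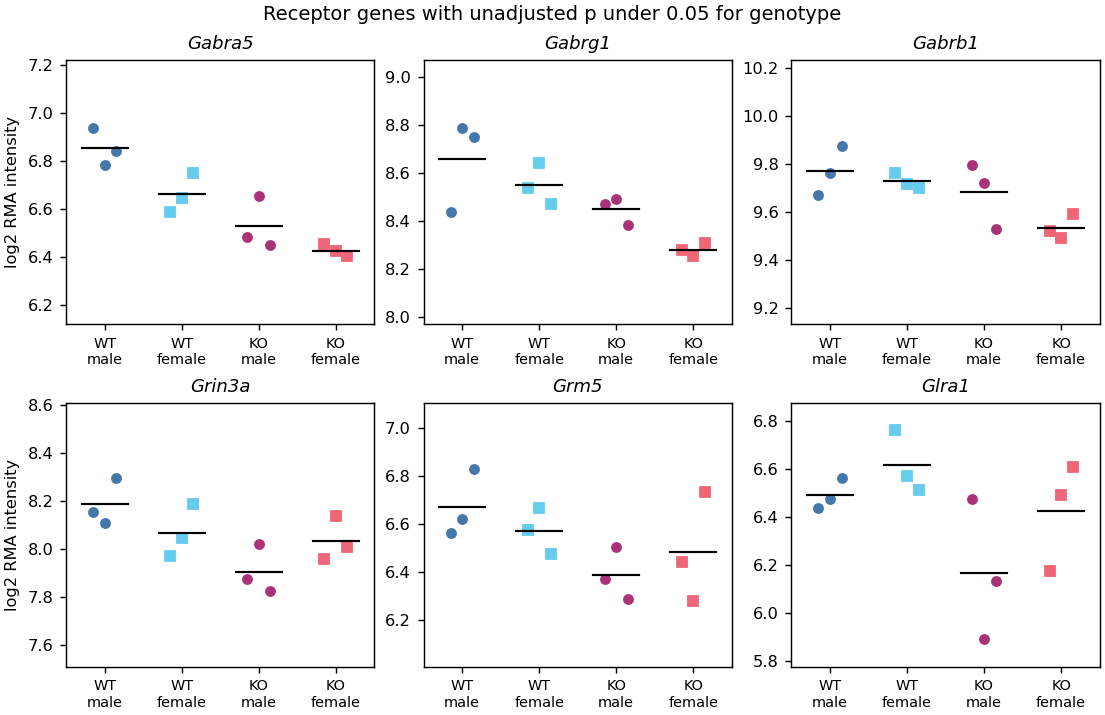
Log2 RMA intensity (y axis, a range of 1.1 in every panel) of the 6 receptor genes with unadjusted p under 0.05 for genotype, by group (x axis), with a point for each of 3 arrays and a bar for the group mean. For Gabra5 the KO arrays lie at 6.40 to 6.65 and the WT arrays at 6.59 to 6.94, and for Glra1 the KO_male arrays spread from 5.89 to 6.48.

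Gabra2 encodes an alpha subunit and differed between arrays of one group more than any other receptor gene. Its values were 8.85, 8.54 and 8.29 in WT_male, 8.10, 8.82 and 8.76 in WT_female, 8.14, 8.78 and 8.14 in KO_male and 8.81, 8.72 and 8.24 in KO_female. Every group thus held an array below 8.3 and an array above 8.7. The SD within groups was 0.34, at the 98.4th percentile of all genes, against a median of 0.10 over the receptor genes and 0.11 over all genes. The difference between genotypes was -0.09 with a wide interval of -0.45 to 0.28 (limma adjusted p = 0.911). Gabra4 and Gabrg1, of the same cluster, had SDs within groups of 0.12 and 0.11.

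Markers of the choroid plexus, a tissue beside the cerebellum, also varied between arrays in every group. The mean log2 level of 6 such markers was 9.07, 7.85 and 7.91 in WT_male, 7.29, 8.93 and 8.31 in WT_female, 7.39, 8.46 and 7.44 in KO_male, and 6.90, 8.66 and 7.61 in KO_female. All 6 had a lower mean in the knockout (median -0.32) and none lay below the background reference. With groups in the fit, Gabra2 had a slope of 0.30 (SE 0.11) per unit of this level, which did not pass over all genes (limma adjusted p = 0.623). KO_female replicate 1 stood apart, with the lowest choroid level, 6.90, and a Gabra2 value of 8.81. Without that array, left out after its value was seen, the slope was 0.46 (SE 0.06; adjusted p = 0.0266), and without any other single array it was 0.23 to 0.37 (adjusted p from 0.573 to 0.931). The choice of the array shaped the smaller p, and the share of all genes passing in that fit was not counted. No link between Gabra2 and the choroid level is therefore read from it. Among the 33 receptor genes 4 had a slope with unadjusted p under 0.05, Gria1, Grm7 and Gabra2 upward and Gabra3 downward, against 6.84% of all genes. After adjustment 0 did, against 0.108% of all genes. With the choroid level as a covariate 7 receptor genes were lower in the knockout at an unadjusted p under 0.05, Grm3 and Gabra3 joining and Grin3a leaving the 6 above, and 1, Grm7, was higher (0.12, SE 0.04). Over all genes 4.77% were lower and 4.14% higher in that fit. None of the receptor genes passed there after adjustment, where 0.0135% of all genes did. The other row of Grm7, almost as bright, was not fitted with the choroid level and differed by -0.05 without it.

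**Figure D3:**
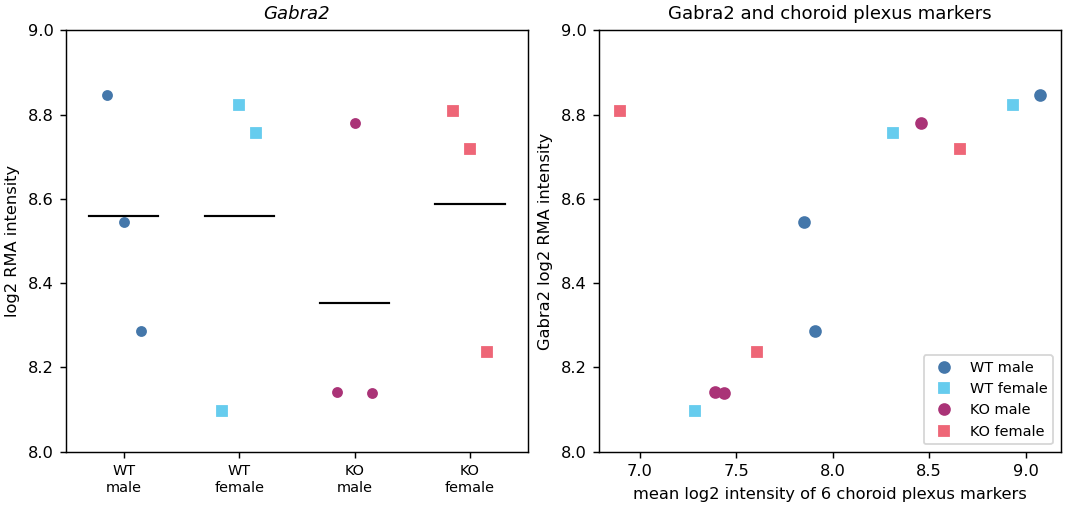
Log2 RMA intensity of Gabra2 by group (left, points for 3 arrays and a bar for the mean) and against the mean log2 intensity of 6 choroid plexus markers in the same array (right). Arrays run from 8.10 to 8.85 for Gabra2, and the KO_female array at the far left, at a choroid level of 6.90, has a Gabra2 value of 8.81.

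GABA-B receptors need both of their subunits, Gabbr1, which binds GABA, and Gabbr2, which couples to the G protein. Both were steady across the 12 arrays, with SDs within groups of 0.05 each. Gabbr1 differed by -0.05 (95% interval -0.13 to 0.04) and Gabbr2 by 0.01 (95% interval -0.08 to 0.10).

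Glycine receptors are chloride channels of the brainstem, spinal cord and some cerebellar interneurons and nuclei. Glra1, the alpha subunit of the adult receptor, stood at 6.44, 6.48 and 6.56 in WT_male, 6.76, 6.57 and 6.51 in WT_female, 6.48, 5.89 and 6.13 in KO_male and 6.17, 6.49 and 6.61 in KO_female. In 3 KO arrays it lay below every WT array, and the other 3 lay within the WT range. The difference was -0.26 (SE 0.10; limma adjusted p = 0.495), and with a mean of 6.42 the gene was below the background reference. With the oligodendrocyte level as a covariate the direction turned, to 0.12 (SE 0.13). Glrb, the beta subunit that ties the receptor to gephyrin, differed by -0.07 (SE 0.05), Glra2 by -0.07 (SE 0.10) and Glra3 by 0.02 (SE 0.09), the last 2 also below the reference.

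The 4 AMPA receptor genes carry most fast excitation in the cerebellum, and none passed the test. Gria1, found in Bergmann glia as well as neurons, differed by -0.01 (95% interval -0.13 to 0.12). Gria2, the subunit whose edited form keeps calcium out, differed by -0.05 (-0.15 to 0.05). Gria3, which is X-linked, differed by -0.02 (-0.13 to 0.10) and Gria4 by -0.04 (-0.14 to 0.05). Among these 4 intervals the bound farthest from 0 was -0.15, on the log2 scale.

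Kainate receptors, which modulate release and excitability, did not pass either. Grik1 differed by 0.02 (SE 0.06), Grik2 by 0.01 (SE 0.04) and Grik3 by -0.05 (SE 0.07). Grik4 and Grik5, which bind kainate tightly and need a partner from the other 3, differed by 0.02 (SE 0.06) and 0.01 (SE 0.04). Grik5 was the steadiest receptor gene, with an SD within groups of 0.04. Grid1, a delta receptor that binds cerebellins at synapses, differed by -0.09 (SE 0.06).

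Of the NMDA receptor genes only Grin3a had an unadjusted p under 0.05. It encodes a glycine-binding subunit that lowers the calcium flow of the receptor. It stood at 8.15, 8.11 and 8.29 in WT_male, 7.97, 8.04 and 8.19 in WT_female, 7.87, 8.02 and 7.82 in KO_male and 7.96, 8.14 and 8.01 in KO_female. The KO_male arrays lay below all WT_male arrays, and the female groups overlapped. The difference was -0.16 over both sexes (SE 0.06; limma adjusted p = 0.484), -0.28 in males (SE 0.08; adjusted p = 0.872) and -0.03 in females. The glutamate-binding subunits Grin2a, Grin2b and Grin2d differed by 0.07 (SE 0.05), 0.04 (SE 0.06) and 0.01 (SE 0.07). A second, dimmer row of Grin2b differed by -0.08 and one of Grin2d by 0.08.

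Metabotropic glutamate receptors differed in both directions. Grm5, which couples to the phospholipase C pathway, stood at 6.56, 6.62 and 6.83 in WT_male, 6.58, 6.67 and 6.48 in WT_female, 6.37, 6.51 and 6.29 in KO_male and 6.44, 6.28 and 6.74 in KO_female. The males did not overlap, and the KO_female array at 6.74 lay above all WT_female arrays. The difference was -0.19 (SE 0.08; limma adjusted p = 0.522), with a mean of 6.53 close to the background reference and 4 of the 6 KO arrays below it. With the astrocyte level as a covariate its direction turned, to 0.05 (SE 0.12).

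Grm3, a receptor of neurons and astrocytes that lowers cyclic AMP, differed by -0.13 (SE 0.07). Grm4 and Grm7, which act on transmitter release, differed by 0.07 (SE 0.05) and 0.08 (SE 0.05). The other row of Grm7, almost as bright, differed by -0.05, so the 2 rows of that gene pointed in opposite directions. Grm8 differed by 0.06 (SE 0.08).

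The size of change these arrays could have missed was read from the intervals. For 18 of the 30 receptor genes above the background reference the 95% interval lay within 0.2 on the log2 scale of no difference, a factor of 1.15, and for 24 within 0.3, a factor of 1.23. The 18 include Grm7, whose other row pointed in the opposite direction, so its interval holds for the row used only. Grm8, among the 24, was close to the reference, with 2 WT arrays below it, so its interval sets no firm limit on a change in RNA. For Glra1, Glra2 and Glra3, below the reference, an interval sets no limit on a change in RNA. The widest intervals were those of Gabra2 and Gabra3.

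Within males 5 receptor genes were lower and 0 higher at an unadjusted limma p under 0.05, against 2.8% and 2.62% of all genes. These were Gabra5 (-0.32, SE 0.07), Grin3a (-0.28, SE 0.08), Grm5 (-0.28, SE 0.11), Gabrg1 (-0.21, SE 0.09) and Glra1 (-0.32, SE 0.14). None passed after adjustment (adjusted p from 0.570 to 0.996 over the 33 genes), where 0.0225% of all genes did. Within females 4 were lower and 1 higher, against 3.98% and 4.52% of all genes. The lower ones were Gabra5 (-0.23, SE 0.07), Gabrg1 (-0.27, SE 0.09), Gabrb1 (-0.19, SE 0.08) and Gabrg3 (-0.29, SE 0.12), and the higher one was Grm8 (0.25, SE 0.11). Gabra5, Gabrg3 and Grm8 had means of 6.62, 6.57 and 6.66, close to the background reference of 6.47. None passed after adjustment in females either (adjusted p from 0.439 to 0.993), where again 0.0225% of all genes did. The sign was the same in both sexes in 18 receptor genes, lower in 14 and higher in 4, and opposite in 15.

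The interaction test asked whether the genotype effect differed between the sexes. It called 0 receptor genes and 0% of all genes after adjustment (limma adjusted p of at least 0.998 for each receptor gene). At an unadjusted p under 0.05 it named Grm8 alone among the receptor genes, with a larger value in females, against 2.54% of all genes in that direction and 2.28% in the other. Grm8 stood at 6.83, 6.80 and 6.64 in WT_male, 6.70, 6.42 and 6.40 in WT_female, 6.49, 6.69 and 6.72 in KO_male and 6.90, 6.56 and 6.82 in KO_female. Its mean was thus highest in WT_male and KO_female, and the groups overlapped in both sexes. The WT_female arrays at 6.42 and 6.40 lay below the background reference of 6.47. The size of the difference in RNA is thus not read from this gene. The effect in females exceeded that in males by 0.37 (SE 0.16; adjusted p = 0.998). The next in rank were Grin3a, with 0.25 (SE 0.12), and Gabrg3, with -0.28 (SE 0.17). Gabrg3 stood at 6.45, 6.61 and 6.76 in WT_male, 6.56, 6.84 and 6.68 in WT_female, 6.67, 6.78 and 6.33 in KO_male and 6.27, 6.48 and 6.45 in KO_female, so that the females did not overlap and the males did. Of its arrays 3 KO and 1 WT lay below the background reference, so the size of its difference in RNA is not read from them.

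**Figure D4:**
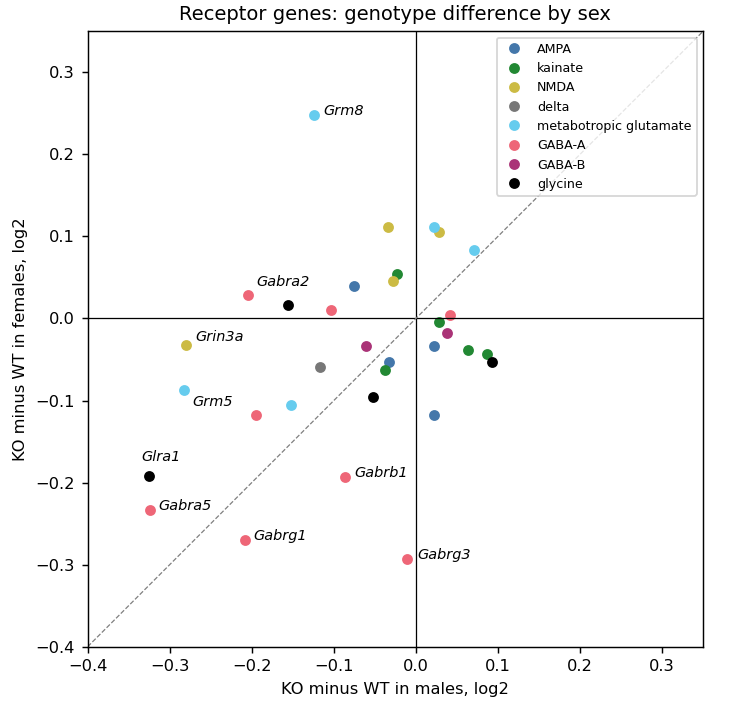
Genotype difference in males (x axis) against that in females (y axis), both knockout minus wild type on the log2 scale, for the 33 receptor genes coloured by family, with the line of equal effects dashed. Gabra5, Gabrg1 and Glra1 lie at the lower left, and Grm8 lies at -0.12 in males and 0.25 in females.

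Females were compared with males over both genotypes. None of the receptor genes passed after adjustment (limma adjusted p from 0.580 to 0.997), where 0.0361% of all genes did. At an unadjusted p under 0.05, 2 were lower and 2 higher in females, against 4.18% and 3.75% of all genes. Grm4, the receptor of granule cell terminals, was measured at 9.76, 9.63 and 9.81 in WT_male, 9.86, 9.74 and 9.91 in WT_female, 9.80, 9.70 and 9.77 in KO_male and 9.98, 10.00 and 9.87 in KO_female, a difference of 0.15 (SE 0.05). The KO_female arrays lay above all KO_male arrays, and the WT groups overlapped. Grin2d was higher in females by 0.16 (SE 0.07), with 7.19, 6.98 and 7.11 in WT_male, 7.36, 7.13 and 7.15 in WT_female, 7.08, 7.05 and 7.06 in KO_male and 7.24, 7.09 and 7.45 in KO_female. The WT groups overlapped and the KO groups did not. Gabra5 was lower in females by 0.15 (-0.15, SE 0.05) and Gabrg1 by 0.14 (-0.14, SE 0.06), in the same samples that gave their genotype differences. The X-linked receptor genes Gria3, Gabra3 and Glra2 differed between the sexes by -0.05 (SE 0.05), 0.01 (SE 0.10) and -0.10 (SE 0.10).

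Genes that work with these receptors were read from 3 further lists. Of 18 other receptor genes 13 were measured, among them Gabra6 and Gabrd of granule cells, and 8 of the 13 lay below the background reference. Of the 13, 0 passed after adjustment and 0 had an unadjusted limma p under 0.05 for genotype, which says little for the 8 below the reference. Gabrd, whose product gives granule cells their steady inhibition, differed by 0.07 (SE 0.05), and the dim genes Gabrq and Gabrr3 by -0.10 (SE 0.07) and -0.10 (SE 0.08). Of 46 auxiliary and anchoring proteins 0 passed after adjustment, with 1 lower and 1 higher at an unadjusted p under 0.05. These were Cnih3, an AMPA receptor chaperone below the background reference (-0.27, SE 0.10), and Cacng4, an AMPA receptor regulator found in glia (0.17, SE 0.07), followed by its relative Cacng8 (0.10, SE 0.05). The medians of these lists were -0.01 and -0.00, against -0.05 over the receptor genes. Most measured genes of the first list lay below the background reference, so its median is not comparable with that of the receptor genes.

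Of 15 measured genes of transmitter synthesis and transport 0 passed after adjustment, while 3 were lower and 0 higher at an unadjusted p under 0.05. Slc17a6, which loads glutamate into vesicles in brainstem and deep nuclear neurons, had the largest difference, -0.95 (SE 0.25; limma adjusted p = 0.318). It stood at 7.07, 7.43 and 7.81 in WT_male, 7.55, 7.40 and 7.76 in WT_female, 7.51, 6.71 and 6.17 in KO_male and 5.86, 5.95 and 7.08 in KO_female. In 4 KO arrays it lay below every WT array. The KO_male array at 6.17 and the KO_female arrays at 5.86 and 5.95 lay below the background reference, and no WT array did. The size of the difference in Slc17a6 RNA is therefore not read from these values. The summed intensity of the 13 measured brainstem and nuclear markers, Slc17a6 among them, was 1489 to 1670 in WT_male, 1497 to 1604 in WT_female, 1433 to 1562 in KO_male and 1341 to 1525 in KO_female. Of these markers 6 had a lower mean and 7 a higher one. All 7 with a higher mean lay below the background reference, where a signal of their own was not shown. The 3 above it had a lower mean, with Slc6a5 at -0.09 (SE 0.06) and Nefh at -0.03 (SE 0.08) beside Slc17a6. Glra1 was lowest in the KO_male arrays with Slc17a6 at 6.71 and 6.17 and in the KO_female array at 5.86, while the KO_female array with Slc17a6 at 5.95 had Glra1 at 6.49. The part of such cells in the Glra1 values was not tested. The glial transporters Slc6a11, for GABA, and Slc1a2, for glutamate, differed by -0.26 (SE 0.12) and -0.10 (SE 0.04).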

How the data were processed

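The authors deposited RMA values from a core-exon analysis in Affymetrix Expression Console, per the labels, as an intensity on a linear scale (array medians 96.5 to 98.7). The tools listed, per the submitters' processing notes, include Transcriptome Analysis Console 3.0. The genome build is not given in the sources used here. Log2 of each intensity was taken with no pseudocount and no further normalization. Of 41345 rows 23521 had 1 gene symbol in GEO's platform annotation, 1814 several and 16010 none. The brightest row per gene gave 22180 genes. limma 3.58.1 in R 4.3.3 fitted a mean for each of 4 groups with a spread shared over 12 arrays, moderated with eBayes. All p-values are two-sided, adjusted by Benjamini-Hochberg over 22180 genes at a threshold of 0.05, and the test was tried on simulated data. Differences are KO minus WT or females minus males. Precision is limited by 3 arrays per group. The receptor genes and gene lists were chosen with earlier results of these data known. Genes given in full had unadjusted p under 0.05 for genotype, or ranked in the first 3 for males, females, interaction or sex; Gabra2 and the choroid fit were singled out after values were seen. Replicate numbers only name arrays, and separate animals are stated by the extraction protocol. Promoters come from RefSeq, GRCm38.p6; all 33 receptor genes matched the RefSeq gene table, used for chromosomes and gene order.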

Additional observations from a re-analysis of the deposited data

How the results depend on the processing

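No receptor gene passed after adjustment for any contrast under any of the 22 alternatives, which were variance priors, a brightness filter, the mean of a gene's rows, 2 normalizations, array weights, leaving out each array, and 3 marker covariates (genotype over both sexes only, chosen after seeing the data). The count of 6 receptor genes lower at an unadjusted p under 0.05 was 3 over genes above the median brightness, where Gabra5, Grm5 and Glra1 were not tested, 2 with the astrocyte covariate, and 2 to 6 with an array left out. The covariates turned Glra1 (0.12, oligodendrocyte) and Grm5 (0.045, astrocyte); the cause was not tested. All genes past the threshold for genotype over both sexes numbered 5, and 18 with an intensity trend, 14 over genes above the median brightness, 3 with the choroid, 1 with the oligodendrocyte and 2 with the astrocyte covariate, and 3 to 8 with an array left out. Within females 5 became 26 with the trend, 16 with the brightness filter and 3 to 7 with an array left out. Within males 5 became 2 to 4 with an array left out. For the interaction 0 became 2 with the trend, 2 with the brightness filter and 0 to 1 with an array left out. For sex 8 became 15 with the trend, 13 with the brightness filter and 6 to 8 with an array left out. Quantile normalization and equal array medians moved the median over all genes from -0.0007 to -0.003 and 0.0009. No paired analysis was possible because the labels give no replicate numbers shared between groups.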
